A study of Mus musculus with 2 samples.

Results

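DNA replication and mitosis genes encode the machinery with which a cell copies its chromosomes and then separates them, and 59 of them were examined here in the spleen of arthritic mice. The members were listed by gene symbol, 25 replication genes and 34 mitosis genes. Of the 59 genes, 58 had a probe set (several short probes for a transcript, summarized as 1 signal) to which the annotation of the array gives just 1 gene symbol, out of 12393 genes so named on the array. Cyclin B1 (Ccnb1) had none and has no value here. Each gene was represented by its brightest probe set (by mean log2 signal). The 2 Affymetrix mouse arrays hold splenocyte RNA from males of the DBA/1 strain, aged between 6 and 8 weeks, at day 10 after immunization. The GPI immunized array is from mice given 300 μg of GPI-GST (human glucose-6-phosphate isomerase fused to glutathione S-transferase) in complete Freund's adjuvant, and the control immunized array from mice given 100 μg of GST in the same adjuvant. Arthritis follows immunization with GPI, so the comparison asks what differs in the spleen between the arthritogenic antigen and its carrier, with adjuvant in both. Spleens of 3 mice per group were taken, and nothing states whether their RNA was pooled. Since each group has 1 array, no test was made, and every ratio below describes these 2 arrays without a replicate check.

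Before a cell divides, the MCM helicase is loaded at origins and activated, and polymerases, the sliding clamp and the ligase then copy the DNA in S phase. Many genes for this step are switched on by E2F transcription factors at the passage from G1 to S phase. In mitosis, cyclin B and Cdk1, the Polo and Aurora kinases, the kinesin motors and the spindle checkpoint drive and supervise chromosome separation, and many of their genes are transcribed in G2 phase through a cell cycle element called CHR. In the spleen, dividing cells include erythroid and myeloid precursors of the red pulp and lymphocytes that have met antigen.

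The promoter sequences below are shown because the letters of these elements part the replication genes from the mitosis genes, a division that does not use the array signals. They are RefSeq promoter windows of assembly GRCm38.p6 (250 bases before to 50 bases after a transcript's start), found for 49 of the 59 genes by symbol. The E2F element was searched as TTTCCCGC, TTTCGCGC, TTTGCCGC or TTTGGCGC and the CHR element as TTTGAA or TTCGAA, each on both strands. The E2F letters were found at 10 of 21 replication genes (Mcm3, Mcm5, Mcm6, Mcm7, Cdc6, Cdt1, Pola1, Rfc3, Lig1 and Uhrf1) and at 1 of 28 mitosis genes (Cdk1), against 2.26% of all 32851 windows and 2.61% of the 27025 genes with a window. The CHR letters were found at 21 of 28 mitosis genes and at 4 of 21 replication genes (Mcm2, Mcm7, Rfc3 and Fen1), against 19.2% of all windows and 21.7% of genes. The CCAAT letters, which neither element contains, were found at 23 of 28 mitosis genes and 13 of 21 replication genes, against 37.4% of all windows and 41.1% of genes. A match is a description of letters in the window and not a shown binding site.

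The 160 bases before the start are given for 3 replication genes, with the E2F letters in capitals. They begin 153 and 149 bases before the start in Mcm5, where they overlap on opposite strands, 110, 106 and 47 bases before it in Mcm6, and 138 bases before it in Cdc6.
Mcm5 (chr8:75109349-75109508, plus strand): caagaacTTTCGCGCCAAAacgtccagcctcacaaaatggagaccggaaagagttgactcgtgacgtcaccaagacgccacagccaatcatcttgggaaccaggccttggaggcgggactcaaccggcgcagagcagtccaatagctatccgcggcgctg
Mcm6 (chr1:128359706-128359865, minus strand): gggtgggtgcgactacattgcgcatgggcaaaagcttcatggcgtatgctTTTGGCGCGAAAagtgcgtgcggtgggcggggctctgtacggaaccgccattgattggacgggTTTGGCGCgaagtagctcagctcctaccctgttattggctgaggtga
Cdc6 (chr11:98907991-98908150, plus strand): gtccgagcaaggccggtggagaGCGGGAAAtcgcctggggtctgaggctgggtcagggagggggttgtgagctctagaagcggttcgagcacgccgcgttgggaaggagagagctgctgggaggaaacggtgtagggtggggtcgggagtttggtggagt

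The same stretch is given for 4 mitosis genes, with the CHR letters in capitals. They begin 71 and 15 bases before the start in Cdk1, 29 bases in Ube2c, 18 bases in Cdc20, and 140, 120 and 23 bases in Top2a.
Cdk1 (chr10:69352913-69353072, minus strand): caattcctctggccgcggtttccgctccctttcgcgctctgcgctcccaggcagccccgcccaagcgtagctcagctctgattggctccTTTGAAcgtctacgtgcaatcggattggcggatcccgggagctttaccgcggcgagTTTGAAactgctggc
Ube2c (chr2:164769769-164769928, plus strand): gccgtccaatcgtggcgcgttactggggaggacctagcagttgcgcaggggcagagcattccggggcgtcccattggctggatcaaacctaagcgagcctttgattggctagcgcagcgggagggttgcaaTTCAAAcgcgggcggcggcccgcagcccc
Cdc20 (chr4:118437344-118437503, minus strand): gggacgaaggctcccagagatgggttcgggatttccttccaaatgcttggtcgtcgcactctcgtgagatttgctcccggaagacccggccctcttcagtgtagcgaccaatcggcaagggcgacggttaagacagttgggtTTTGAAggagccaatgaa
Top2a (chr11:99024190-99024349, minus strand): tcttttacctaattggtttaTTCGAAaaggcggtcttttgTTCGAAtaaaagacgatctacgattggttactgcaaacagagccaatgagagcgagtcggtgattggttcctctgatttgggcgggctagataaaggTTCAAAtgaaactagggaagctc

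On the arrays, most replication genes had a slightly higher signal after GPI immunization, and mitosis genes had ratios both above and below 1. The ratio (GPI-immunized over control signal, deposited intensities without further scaling) was above 1 for 22 of 25 replication genes, with a median of 1.11 (0.15 on the log2 scale). It was above 1 for 17 of 32 mitosis genes with sufficient signal, with a median of 1.01 (0.01 on the log2 scale). Sufficient signal means that at least 1 of the 2 signals was 50.2 or more, which is the 50th percentile on these arrays. Of the 6961 genes that reach it, 57.5% had a ratio above 1, with a median of 1.04 (0.06 on the log2 scale). The ratio was below 1 for 3 replication and 15 mitosis genes, against 42.4% of all genes, and counting ratios above and below 1 was chosen after the ratios were known. When each array was divided by its median, quantile normalized or loess centred, the replication count was 17, 17 and 21 of 25, the mitosis count 11, 13 and 13 of 32, and the share of all genes 45.1%, 46.4% and 48.1%, so that the mitosis median lay below a ratio of 1 under these scalings and the replication median above it. The mitosis median lay 0.14 on the log2 scale below the replication median, and this difference ran from 0.14 to 0.21 over the alternatives in size. A different number of dividing cells and a different amount of a transcript per dividing cell cannot be told apart in whole splenocytes, in either direction.

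None of these differences was large. By the 2-fold rule (a ratio of at least 2, or of at most 0.5, at sufficient signal), 0 of the 57 members with sufficient signal were higher and 0 were lower, against 2.23% of all genes higher and 0.445% lower. By a 1.5-fold rule the counts were again 0 and 0, against 7.05% of all genes higher and 3.23% lower. As a yardstick without mouse-to-mouse variation, the SD of the log2 ratio between probe sets of one gene was 0.28 (1693 pairs), a factor of 1.22, and 0.22 where both probe sets reached the 75th percentile (787 pairs). Past this SD, a rule chosen after the ratios were known, 8 of 25 replication genes were higher and 0 were lower, and 1 of 32 mitosis genes was higher and 1 was lower. Among all genes 23.8% were higher and 14.9% lower by the same rule.

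**Figure D1:**
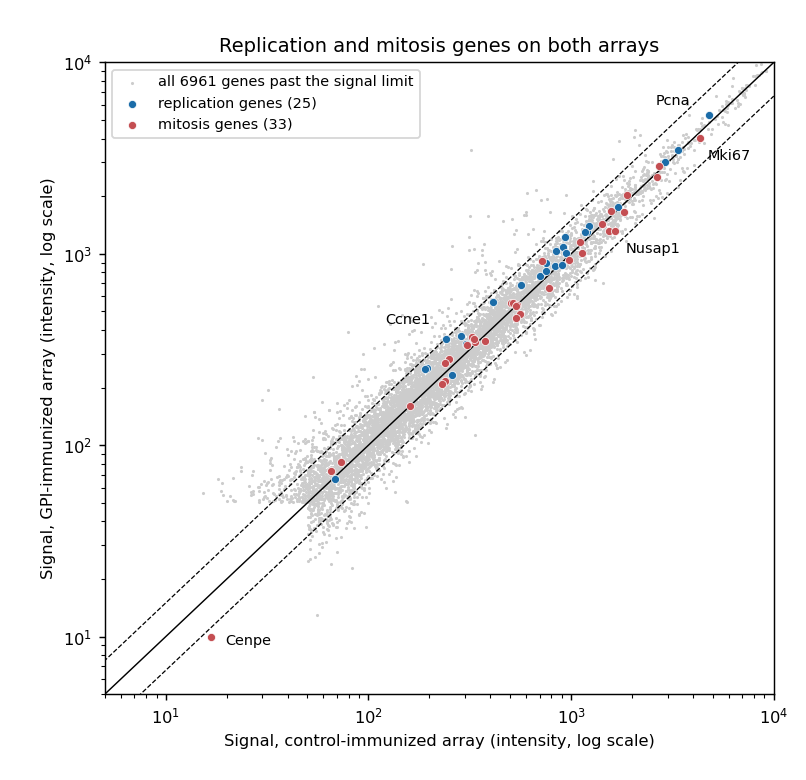
Deposited intensity of each measured member, control array on the horizontal and GPI-immunized array on the vertical axis, both logarithmic, 1 point for each gene and 1 array for each group, with the ratio of 1 as a solid line and the 1.5-fold ratios as dashed lines. All members but Cenpe, at 16.7 and 9.9, lie between the dashed lines, with Ccne1 at 241.9 and 360.9 near the upper one.

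The licensing and helicase genes lay on one side. All 10 had a ratio above 1, from 1.03 to 1.31, with a median of 1.17. They were 8, 8 and 10 of 10 above 1 under the 3 other scalings, in the order given above. Mcm2, a subunit of the helicase ring, had signals of 930.0 (control) and 1219.4 (GPI-immunized), a ratio of 1.31, and signals are given in this order from here on. Gins1, part of the complex that joins the ring to Cdc45, had signals of 287.0 and 372.6, a ratio of 1.30. Mcm10, which helps to activate the helicase, had signals of 194.5 and 252.1, a ratio of 1.30. These 3 had the highest ratios of the group, and they and Mcm3 each lay just above the spread between probe sets. The ring subunits Mcm3 (837.7 and 1034.7, a ratio of 1.24), Mcm5 (914.1 and 1084.2, a ratio of 1.19) and Mcm6 (1219.3 and 1399.1, a ratio of 1.15) came next. Mcm4 had a ratio of 1.08, from signals of 1201.9 and 1297.3, and Mcm7 a ratio of 1.03, from signals of 3374.4 and 3473.6. The loading factors Cdc6 (704.6 and 769.2) and Cdt1 (1700.7 and 1766.3) had ratios of 1.09 and 1.04. The 6 ring subunits thus ran from 1.03 to 1.31.

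The polymerase and clamp genes were similar, with 7 of 8 ratios above 1 and a median of 1.11, and 5, 5 and 6 of 8 above 1 under the other scalings. The clamp loader subunits stood highest. Rfc3 had signals of 190.8 and 249.9, a ratio of 1.31, and Rfc4 signals of 564.4 and 686.1, a ratio of 1.22. Prim1, the catalytic subunit of primase, had signals of 748.3 and 893.9, a ratio of 1.19. Pole, the leading strand polymerase, had signals of 301.5 and 337.2, a ratio of 1.12, and the clamp Pcna signals of 4807.4 and 5287.1, a ratio of 1.10. The genes that process and join Okazaki fragments were close to 1, with Fen1 at 1.06 (945.2 and 1004.8) and Lig1 at 1.04 (830.5 and 861.0). Pola1, the catalytic subunit of the polymerase that works with primase, was the only member of the group below 1, at 0.903 (257.0 and 232.0).

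Nucleotide supply genes lay near 1, with 2 of 4 above it, and 1, 1 and 2 of 4 under the other scalings. The ribonucleotide reductase subunits had ratios of 1.11 for Rrm1 (1165.0 and 1292.2) and 1.04 for Rrm2 (2905.9 and 3033.8). The thymidylate enzymes had ratios of 0.982 for Tyms, from signals of 68.0 and 66.8, and 0.975 for Tk1, from signals of 898.9 and 876.5. Together with Pola1, Tyms and Tk1 are the 3 replication genes below 1, and Mcm7, Cdt1, Fen1, Lig1 and Rrm2 also lay below 1 after division by the median, 8 of 25 in all.

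By the brightest probe set of each gene, Ccne1 and Ccne2 had the highest ratios of all members, but with all probe sets of a gene averaged Cdt1 lay above Ccne1, and Mcm10, Rfc3, Uhrf1 and Mcm3 above Ccne2. That average takes in probe sets under the signal limit. Cdt1 and Mcm10 lay so high only through such readings, at 0.3 and 3.0 and at 8.4 and 12.9. Cyclin E, with Cdk2, drives the passage from G1 to S phase. Ccne1 had signals of 241.9 and 360.9, a ratio of 1.49, and Ccne2 signals of 412.9 and 561.5, a ratio of 1.36. Each is read by a single probe set, so there is no second reading of either. Uhrf1, which brings maintenance DNA methylation to replicated DNA, had signals of 750.4 and 815.8, a ratio of 1.09.

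**Figure D2:**
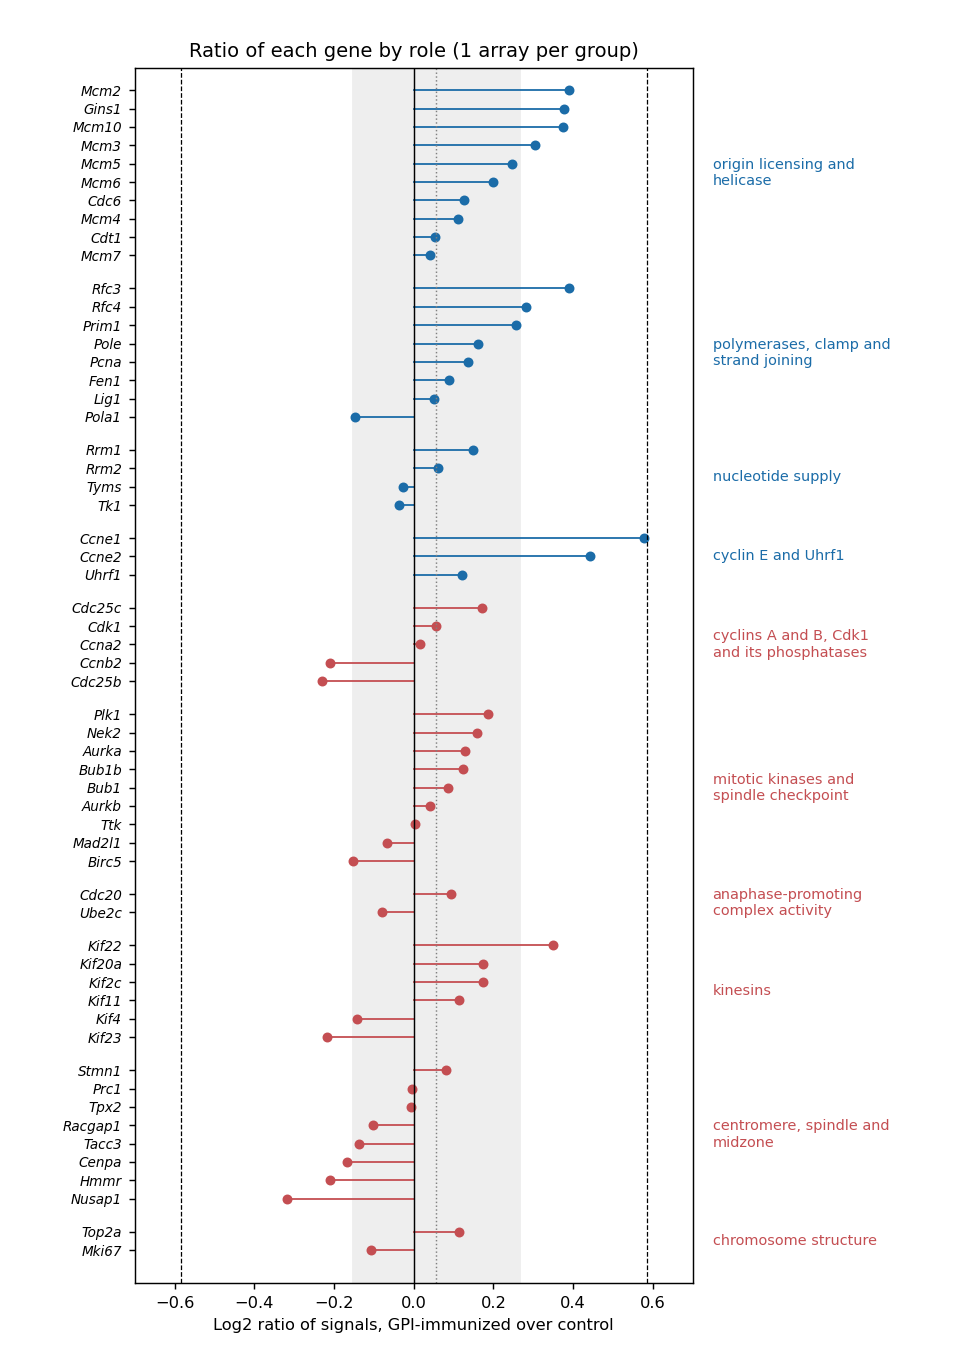
GPI-immunized over control signal as a log2 ratio (horizontal axis) for the 57 members with sufficient signal, in their roles, 1 point for each gene and 1 array for each group, with the middle 50% of all 6961 genes as a grey band, their median as a dotted line and the 1.5-fold ratios as dashed lines. Replication genes (blue) lie mostly to the right of 0, with cyclin E farthest, and the centromere and spindle genes (red) mostly to the left.

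Among mitosis genes, the regulators of entry did not share a direction. Of the 5 measured cyclin, Cdk1 and Cdc25 genes 3 had ratios above 1, and 1 of 5 under each other scaling. Cyclin B2 (Ccnb2) had signals of 1530.3 and 1323.0, a ratio of 0.865, and the phosphatase Cdc25b, which activates Cdk1, signals of 778.9 and 664.2, a ratio of 0.853. Cdk1 itself had a ratio of 1.04, from signals of 1103.8 and 1147.1, and cyclin A2 (Ccna2), which acts in S phase as well as in G2, a ratio of 1.01, from signals of 1418.7 and 1434.1. Cdc25c, with signals of 65.0 and 73.2, had a ratio of 1.13.

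The kinases and the spindle checkpoint lay close to 1. Of 9 genes 7 had ratios above 1, and 4, 5 and 5 of 9 under the other scalings. Plk1, the Polo kinase, had the highest ratio at 1.14, from signals of 323.5 and 368.4. The centrosomal kinase Nek2 (73.3 and 81.8), Aurora A (Aurka, 507.4 and 554.8) and the checkpoint gene Bub1b (306.7 and 334.4) had ratios of 1.12, 1.09 and 1.09. The checkpoint kinases Bub1 (518.8 and 550.9) and Ttk (159.6 on the control array) had ratios of 1.06 and 1.00. Aurora B (Aurkb, 335.2 and 345.1) and its partner survivin (Birc5, 1832.6 and 1648.6) had ratios of 1.03 and 0.900, and the checkpoint protein Mad2l1 (975.0 and 931.5) a ratio of 0.955. Both genes of the anaphase-promoting complex lay near 1 as well. Its activator Cdc20 had signals of 1567.0 and 1671.8, a ratio of 1.07, and its ubiquitin-conjugating enzyme Ube2c signals of 2657.8 and 2515.3, a ratio of 0.946.

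The kinesins, motors that move along microtubules, had 4 of 6 ratios above 1 under every scaling. Kif22, a chromosome-bound motor, had signals of 718.5 and 916.3, a ratio of 1.28, the highest of the mitosis genes. The other probe sets of Kif22 had ratios of 0.979 and 0.876, so this value is not shared by its own readings. Kif20a (250.4 and 282.7) and Kif2c (238.2 and 268.9) had a ratio of 1.13 each, and Kif11, which pushes the spindle poles apart, a ratio of 1.08 (330.1 and 357.2). Kif4 (238.6 and 216.2) and Kif23, a motor of the central spindle (562.4 and 483.6), had ratios of 0.906 and 0.860.

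The centromere, spindle and midzone genes had most ratios below 1 under every scaling. Of 8 genes 7 were below 1, with a median of 0.920, and 8, 7 and 7 were below 1 under the other scalings. Nusap1, a protein that bundles spindle microtubules, had signals of 1641.7 and 1318.0, a ratio of 0.803, the lowest among members with sufficient signal. Hmmr, another spindle protein, had signals of 531.9 and 459.5, a ratio of 0.864, and the centromeric histone Cenpa signals of 1136.3 and 1012.1, a ratio of 0.891. Tacc3 (230.4 and 209.5) and Racgap1, which acts with Kif23 in cytokinesis (377.7 and 351.8), had ratios of 0.909 and 0.931. Tpx2 (535.6 and 532.9) and the midzone protein Prc1 (543.3 and 541.9) lay at 0.995 and 0.997. Hmmr, Prc1 and Tpx2 each also had a probe set of sufficient signal above 1, at 1.22, 1.18 and 1.08. All such probe sets of Tacc3 and Racgap1 were below 1. Stathmin (Stmn1), which destabilizes microtubules, was the exception with signals of 2704.6 and 2859.3, a ratio of 1.06. The kinetochore motor Cenpe had signals of 16.7 and 9.9, under the signal limit and on the GPI-immunized array under the highest bacterial control signal of 14.1, so its ratio is not used.

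The common proliferation marker Mki67 had signals of 4323.5 and 4017.8, a ratio of 0.929, and topoisomerase II (Top2a), which untangles chromosomes, signals of 1882.8 and 2038.5, a ratio of 1.08. The proliferation markers Mki67, Pcna and Top2a thus lay within 1.10-fold of a ratio of 1 on these arrays.

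Genes read by several probe sets give a second look at each ratio. Over all probe sets of sufficient signal, 38 of 43 of the replication genes and 25 of 52 of the mitosis genes had ratios above 1, with medians of 1.16 and 0.997. Of the 13 replication genes with several such probe sets, 12 had all of them above 1, 0 had all below and 1, Mcm7, had both (from 0.886 to 1.27). Of the 13 mitosis genes with several, 2 (Ccna2 and Stmn1) had all above 1, 3 (Kif23, Racgap1 and Tacc3) had all below and 8 had both. Mcm3 had 4 such probe sets, with ratios from 1.19 to 1.65. Rrm2 had 3, with ratios from 1.04 to 1.36, and the second probe set of Rfc3 had a ratio of 1.49. In these genes the brightest probe set, which represents the gene, had a ratio below that of another probe set. Uhrf1 had a second probe set with signals of 130.6 and 223.5, a ratio of 1.71, and Tacc3 one with signals of 117.1 and 68.4, a ratio of 0.584. The third probe set of Cdc20, with signals of 68.9 and 25.1, had a ratio of 0.364, against 1.18 for its second. The far readings of Cdt1 (0.3 and 3.0) and Nusap1 (16.1 and 5.5) lay under the signal limit. The counts of probe sets above 1 rest on unscaled signals, and no share over all probe sets was taken. By brightest probe set, 57.5% of all genes had ratios above 1. Division by the median lowers each log2 ratio by 0.0905. Mcm4, Cdt1, Fen1 and Rrm2 each had at least 1 probe set of sufficient signal above 1 by less than that, so part of the replication count depends on the scaling.

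**Figure D3:**
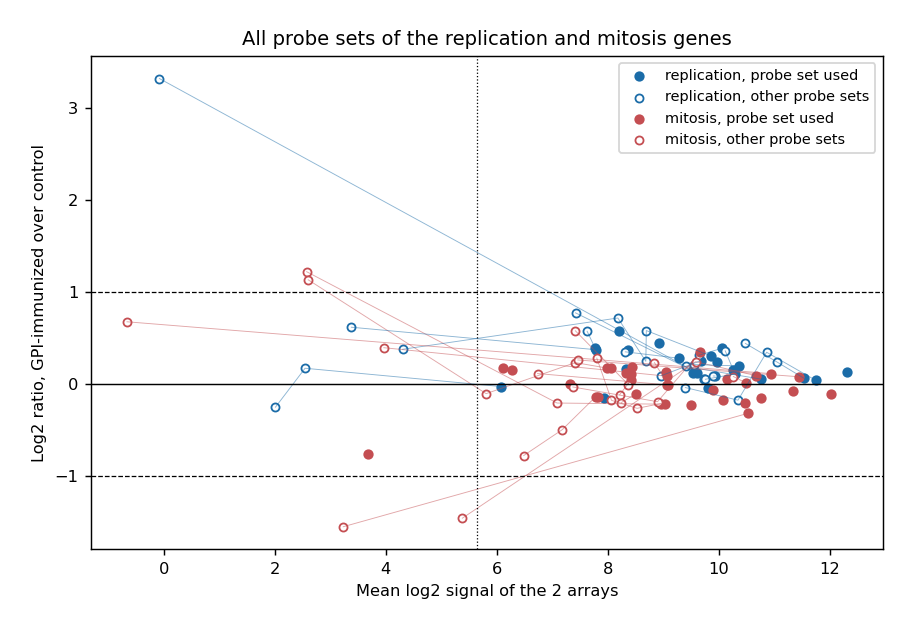
Log2 ratio (vertical axis) against the mean log2 signal of both arrays (horizontal axis) for all 106 probe sets of the 58 genes, with thin lines joining probe sets of 1 gene, log2 of the signal limit of 50.2 as a dotted line and 2-fold ratios as dashed lines. Filled points, the probe sets used, stay between the dashed lines, with Cenpe lowest, under the signal limit at 16.7 and 9.9. The readings farthest from 0, such as Cdt1 at 0.3 and 3.0, belong to dim probe sets.

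Other genes of both processes lay in the same order. Of 40 further replication genes with sufficient signal (origin recognition, polymerase, replication factor and repair genes), 29 had ratios above 1, with a median of 1.15. Among all genes 57.5% had. Under the other scalings 24, 27 and 27 of the 40 were above 1, against 45.1%, 46.4% and 48.1% of all genes. None of the 40 was 2-fold higher or lower by its brightest probe set. At least 1.5-fold higher were 2 of 40, where 7.05% of all genes were. These were the repair exonuclease Exo1 (81.7 and 141.9, a ratio of 1.74) and the checkpoint kinase Chek1 (123.5 and 190.8, a ratio of 1.54). Under each other scaling 1 gene of the 40 was at least 1.5-fold higher. The other probe set of sufficient signal was at 2.69 for Exo1 and at 1.39 for Chek1. The polymerase subunit Pold2 had a ratio of 1.44 and Mcmbp, which binds the MCM proteins, 1.35. Of 50 further mitosis genes, 21 had ratios above 1, with a median of 0.943, and 16, 17 and 17 under the other scalings, against the same shares of all genes. Cep55, which acts at the final cut between daughter cells, was the 1 of 50 that was 2-fold higher, where 2.23% of all genes were. Its ratio was 2.08, based on signals of 93.2 and 193.8, and was not 2-fold under the other scalings. The checkpoint gene Mad1l1 had a ratio of 1.63 (51.4 and 83.7). Ska1, of the kinetochore (295.8 and 186.1), and Depdc1a (318.4 and 203.2) were at least 1.5-fold lower, at 0.629 and 0.638. These are 2 of 50, where 3.23% of all genes were 1.5-fold lower, and the count was 4 in place of 2 under each other scaling. By the fold rules, the counts as reported thus lie near the shares among all genes. The further mitosis median lay 0.29 on the log2 scale below the further replication median, with no test.

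Genes of a G1 phase and E2F list mostly had ratios above 1, and genes of a CDK inhibitor and quiescence list mostly below 1. Of 13 G1 phase and E2F genes with sufficient signal, 11 had ratios above 1 and 1 below, with a median of 1.23. Among all genes 57.5% had ratios above 1 and 42.4% below. In the G1 list 8, 9 and 10 were above 1 under the other scalings, against 45.1%, 46.4% and 48.1% of all genes. The phosphatase Cdc25a (177.8 and 259.1) had a ratio of 1.46, the E2F partner Tfdp1 (746.7 and 1078.2) 1.44, Cdk4 (455.0 and 647.8) 1.42 and cyclin D3 (Ccnd3, 992.3 and 1412.6) 1.42. E2f1 had a ratio of 1.42 (140.2 and 199.5), with another probe set at 0.746. Of 15 CDK inhibitor and quiescence genes 12 had ratios below 1, against 42.4% of all genes, with a median of 0.836, and 12 under each other scaling. Cdkn1b (p27), an inhibitor that holds resting lymphocytes out of cycle, had signals of 480.8 and 331.6, a ratio of 0.690. The quiescence factors Klf2 (1778.5 and 1309.9) and Foxo1 (432.3 and 319.8) had ratios of 0.737 and 0.740. Cdkn1a (p21) went the other way, at 1.54 (38.4 and 59.0), and reached the signal limit only through the GPI-immunized array. No gene of the G1 list was 1.5-fold higher or lower by its brightest probe set. Other probe sets of sufficient signal reached 1.81 for Cdk4, 1.70 for Ccnd2 and 1.57 for Cdc25a.

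Markers of several cell types differed by more than the members in the same comparison. The splenocyte label was borne out by bright B cell markers (Cd79a 2961.3 and 2076.5) and by T cell markers (Cd3e 241.7 and 123.1), both lower on the GPI-immunized array. All 9 B cell markers with sufficient signal had ratios below 1 (median 0.703), with summed signals of 17824 and 13422, and of 10 T cell markers 9 did (median 0.720), with sums of 2488 and 1828. All 6 neutrophil precursor markers were higher, with a median of 2.10 and sums of 3775 and 8044. Of these, Ctsg had a ratio of 3.04, Prtn3 2.65 and Ms4a3 2.28. All 9 genes of the list called mature neutrophil markers were higher as well (ratios from 1.12 to 3.28, sums of 31399 and 43619). The lowest were S100a9 at 1.12 and S100a8 at 1.18, and the maturity of the cells was not tested. Of 11 erythroid precursor markers 7 had ratios below 1 (median 0.915), 9 under each other scaling, and their sums were 27144 and 24376. Of the germinal centre B cell markers with sufficient signal, Basp1 had signals of 164.6 and 397.3, Bcl6 166.1 and 232.0, Fas 49.5 and 87.7, and Gcsam 23.4 and 73.0. Gcsam and Fas, as well as the neutrophil markers Gfi1 (46.3 and 71.9) and Cxcr2 (23.5 and 76.6), reached the signal limit only through the GPI-immunized array and so could only be higher there. The 5 plasma cell markers with sufficient signal had a median of 1.11. They were Xbp1 at 1.89, Derl3 at 1.66, Sdc1 at 1.11, Jchain at 1.01 and Irf4 at 0.881. The lowest probe set of Xbp1 was at 1.16, and the highest of Irf4 at 1.67. After division by the median the neutrophil and B cell counts were as given, with 10 of 10 T cell markers below 1 and 3 of 5 plasma cell markers above it. No marker of these lists was at 0 on both arrays. The part of these markers' cells in the ratios of the replication, mitosis, G1 phase and quiescence genes was not tested.

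**Figure D4:**
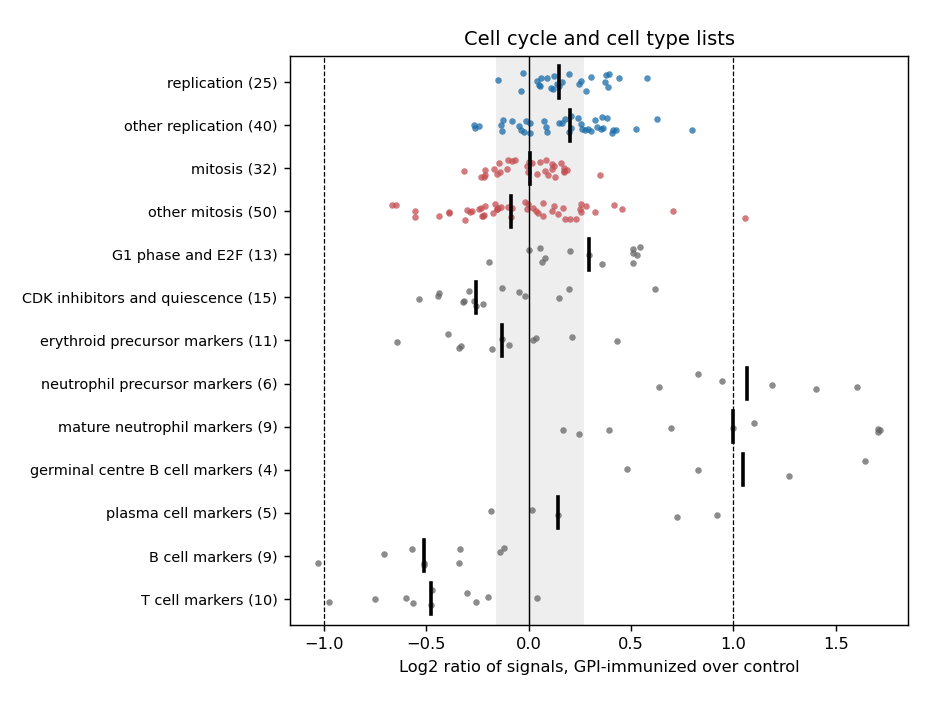
GPI-immunized over control signal as a log2 ratio (horizontal axis) for cell cycle and cell type lists, 1 point per gene with sufficient signal and 1 array for each group, with list medians as black bars, the middle 50% of all genes as a grey band and 2-fold ratios as dashed lines. Replication lists have medians of 0.15 and 0.20, mitosis lists 0.01 and -0.08, while neutrophil precursor markers lie near 1.07 and B cell markers near -0.51.

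Within each list the ratios were set beside the promoter letters. Replication genes with the E2F letters had a median ratio of 1.09 (9 of 10 above 1) and those without 1.11 (9 of 11 above 1). Mitosis genes with the CHR letters had a median of 1.00 (11 of 21 above 1) and the 5 without 0.909 (1 of 5 above 1). The sequences shown above belong to genes with ratios of 1.19 (Mcm5), 1.15 (Mcm6) and 1.09 (Cdc6) with the E2F letters, and of 1.04 (Cdk1), 0.946 (Ube2c), 1.07 (Cdc20) and 1.08 (Top2a) with the CHR letters.

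**Figure D5:**
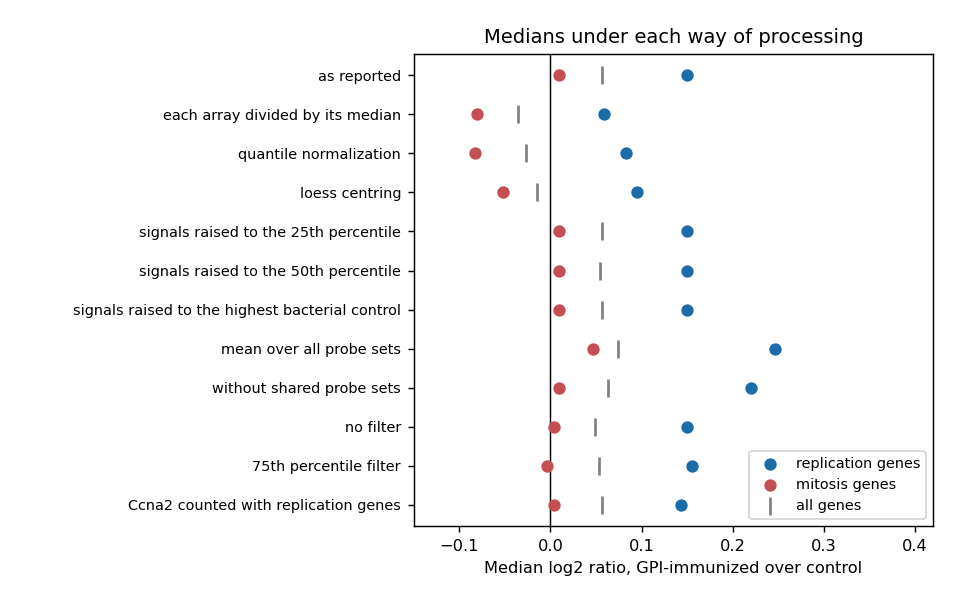
Median log2 ratio (horizontal axis) of the replication genes (blue), the mitosis genes (red) and all genes (grey ticks) under each way of processing, from 1 array per group. The replication median lies to the right of the all-gene median and the mitosis median to its left in each line, at 0.15, 0.06 and 0.01 for the values reported here.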

How the data were processed

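Splenocyte RNA was hybridized to 2 Affymetrix mouse arrays, 1 per group, and the groups were taken from the sample labels. The authors deposited 1 intensity per probe set and array, on a linear scale, made with what the methods call gene expression software. How signals were summarized, scaled and called present is not stated in the sources read. The sample labels describe whole-transcript cDNA labelling and the methods describe biotinylated cRNA. The column medians were 48.65 (control) and 51.8 (GPI-immunized), so the unscaled ratio carries a shift of 0.09 on the log2 scale. Of 22626 probe sets besides 64 controls, 20380 have 1 gene symbol. The symbols of the 58 measured members matched RefSeq (GRCm38.p6) by gene ID. Signals of 0 (3 in all) were set to 0.1. Members and the 11 other lists were chosen with earlier results of these data known. Every member was to be named, and of each other list up to 4 genes farthest from a ratio of 1. Genes named beyond that were chosen after their values were seen. Alternatives were 3 scalings, raised low signals, averaged or unshared probe sets, other signal filters and Ccna2 counted with replication. The number of arrays limits the precision. The steps were run on simulated data with 1 probe set per gene. This checked the arithmetic and neither the choice of probe set nor the list medians. Python 3.11.15, numpy 2.4.6, pandas 2.3.3, statsmodels 0.14.6 (loess span 0.4) and matplotlib 3.10.9 were used.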

Additional observations from a re-analysis of the deposited data

How the results depend on the processing

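No paired analysis was possible because each group has 1 array. The medians of both lists and their difference moved by less than the SD between probe sets under each alternative tried. That SD, 0.28 for a single probe set, is larger than both medians and their difference. Staying within it therefore does not show that they are stable, and the mitosis median changed sign. The replication median ran from 0.06 (division by the median) to 0.25 (mean over all probe sets) and the mitosis median from -0.08 to 0.05 on the log2 scale. Averaging all probe sets put 1 replication gene past 2-fold and past 1.5-fold, Cdt1, through its reading at 0.3 and 3.0. The count of mitosis genes at least 1.5-fold lower moved from 0 to 1 when probe sets were averaged (Nusap1), without probe sets shared between transcripts (Tacc3) and without a filter (Cenpe). Past the SD between probe sets, the count of higher mitosis genes moved from 1 to 0 after division by the median, quantile normalization and without shared probe sets, and to 2 with averaged probe sets. The count of lower ones moved from 1 to 5 after division by the median and quantile normalization, 3 after loess centring and with averaged probe sets, and 2 without shared probe sets and without a filter. The mitosis genes above a ratio of 1 went from 17 to 11 after division by the median. Of 451 values of single members under alternatives, 438 stayed within that SD. The 13 others belong to 9 genes. Much of this count was fixed in advance. Raising low signals leaves brighter members unchanged, averaging leaves genes with 1 probe set unchanged, and division by the median shifts every member by the same 0.09. The count is thus no check of single ratios. The causes were not tested beyond the probe sets named.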
